A study of Mus musculus with 12 samples.

Results

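The genes described here are those whose signal on the lung array of p53 knock-out (p53KO) mice lay at least 1 log2 unit, which is 2-fold, below or above both other lung arrays, from wild-type (WT) and p66 knock-out (p66KO) mice. Genes whose signal in WT liver exceeded the p53KO lung signal by 3 log2 units or more were left out, to set liver transcripts aside. Of 18193 genes, 325 lay below (1.79% of all genes) and 28 above (0.154%), 353 in all. These lung values chose the genes, so the differences in lung are a description and carry no test. The series holds 12 arrays, 1 for each of 4 tissues (lung, heart, liver and thymus) in each of 3 genotypes, and every array measured RNA pooled from 4 mice of strain Sv/129 at 2 months of age. The tissues were freshly isolated and the labels give no treatment. The labels name the knock-outs without their alleles, and each genotype and tissue is known from 1 pool, so the spread between mice of a genotype was not measured. The signal of a gene is the log2 value of its brightest probe set, and in whole lung a lower signal from fewer cells of a type and from less RNA per cell cannot be told apart.

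p53 is a transcription factor that is activated by DNA damage and other stresses and induces genes of cell-cycle arrest, DNA repair and apoptosis. p66 is the longest protein made from Shc1, an adaptor gene, and has been linked to oxidative stress and lifespan. The lung is built of alveolar type I and type II cells, an airway lining of ciliated and club cells, a dense capillary bed, and resident macrophages. Trp53 itself was not analysed here. Shc1 read 8.57 in WT lung, 9.83 in p66KO lung and 9.09 in p53KO lung. Whether that probe set reads the p66 form was not determined, so it does not check the p66 label.

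**Figure D1:**
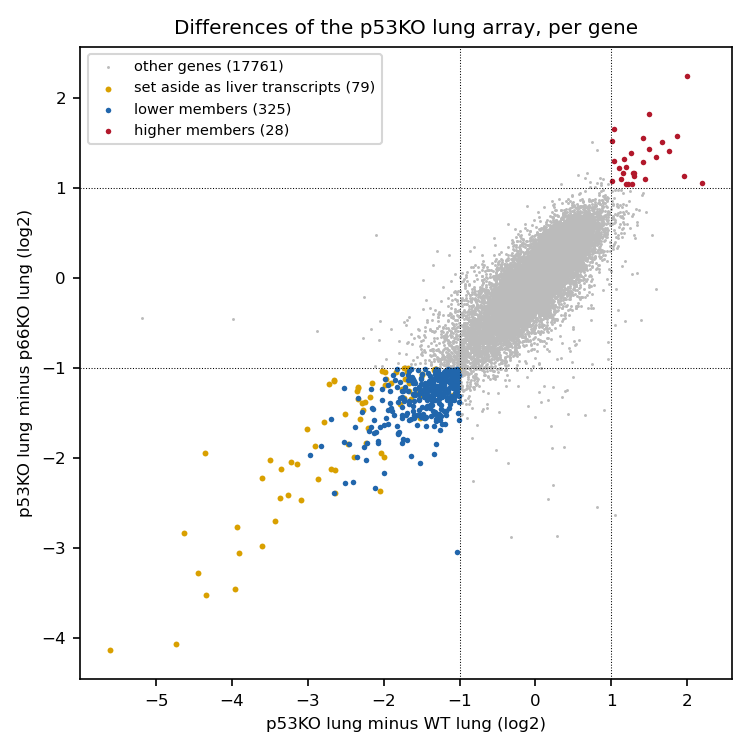
Each point is 1 gene, with the p53KO lung signal minus the WT lung signal on the x axis and minus the p66KO lung signal on the y axis, both in log2; dotted lines mark 1 log2 unit. The 325 lower genes are blue, the 28 higher genes red, and the 79 genes set aside as liver transcripts yellow.

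The p53KO lung array stood apart in its control signals, and these values come first because they touch every lung result. The mean of the 3 probe sets for 18S ribosomal RNA, which a priming on poly-A tails should leave low, was 5.52 in WT lung, 5.94 in p66KO lung and 9.79 in p53KO lung. Over the 12 arrays this mean fell into 2 separate ranges: 6 arrays lay between 5.52 and 6.61 (WT and p66KO lung, the 3 liver arrays and p66KO thymus), and 6 lay between 9.04 and 10.86 (p53KO lung, the 3 heart arrays, and WT and p53KO thymus). In lung, the p53KO genotype and the high 18S signal were therefore on the same single array and cannot be told apart. The 3' minus 5' signal of Gapdh, larger where RNA is shorter or copied less far, was 2.29 in WT lung, 1.32 in p66KO lung and 0.66 in p53KO lung. The same measure of Actb was 1.80, 1.17 and 0.96. By these measures the p53KO lung RNA read further towards the 5' end than the RNA of the other lungs. The mean of the bacterial hybridisation controls was 10.43, 10.86 and 11.42 in WT, p66KO and p53KO lung, while the mean of the poly-A spike-in controls was 7.70, 6.89 and 6.68. The part of these differences in the lung results was not tested.

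The same rule applied to the other lung arrays gave far smaller numbers of low genes. The WT lung lay 1 or more below both others at 12 genes and above both at 53, and the p66KO lung below both at 0 and above both at 28. Before liver transcripts were set aside, the p53KO lung lay below both at 404 genes. The 79 genes set aside were all on the low side, which the limit favours because it is taken from the p53KO lung signal. They were led by Fga, which encodes a chain of fibrinogen, with 11.09 in WT lung, 9.61 in p66KO lung and 5.48 in p53KO lung. Ttr, the thyroid hormone carrier transthyretin, read 12.55, 11.87 and 7.81, and Alb, serum albumin, read 13.13, 12.30 and 8.79. At these 3 genes the WT lung was the highest and the p53KO lung the lowest. The hepatocyte list, 23 genes measured, had a median difference of -3.27 against WT and -2.22 against p66KO, and 18 of its genes were among those set aside. The correlation of the deposited signals across probe sets was 0.96 between p53KO and WT lung, 0.97 between p53KO and p66KO lung, and 0.99 between WT and p66KO lung, across probe sets that are not independent replicates.

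The defining markers of lung were high on the p53KO array. Sftpc, surfactant protein C of type II cells, read 14.63 in WT lung, 14.89 in p66KO lung and 14.91 in p53KO lung. Scgb1a1, the secretoglobin of club cells, read 14.94, 15.27 and 15.41. Ager, a receptor abundant on type I cells, read 13.45, 13.47 and 13.75. These markers differed by less than 0.5 between the arrays. None of 16 genes of the type II and club cell list was lower by the rule, and its median difference was 0.05 against WT and 0.00 against p66KO. Of 14 type I genes none was lower and 1 was higher, and of 22 endothelial genes none was in either set. Cdh5, the cadherin of endothelial junctions, read 10.33, 10.90 and 10.93, but the endothelial list lay the other way. Its median was -0.42 against WT and -0.23 against p66KO, and the p53KO lung was the lowest at 13 of its genes and the highest at 6. The median difference over all genes was 0.07 against WT and 0.06 against p66KO.

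The lower genes differed from WT lung by a median of -1.35 and from p66KO lung by a median of -1.25, which are 2.55-fold and 2.37-fold. For 5 of them the smaller of the differences reached 4-fold, and for 47 it reached 1.5 log2 units. The largest such difference was at Ccdc39, needed for the assembly of the inner dynein arms of motile cilia, at -2.39, with 7.17 in WT lung, 6.90 in p66KO lung and 4.51 in p53KO lung. On the threshold itself the lower genes ended with Qdpr (-1.01), Clint1 (-1.01) and Blmh (-1.01), while Socs4, Dsp and Ccdc141 (each -1.0 after rounding) were just outside. Of the 325 lower genes, 274 had a signal at or above the median gene signal of 7.23 in both reference lungs.

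**Figure D2:**
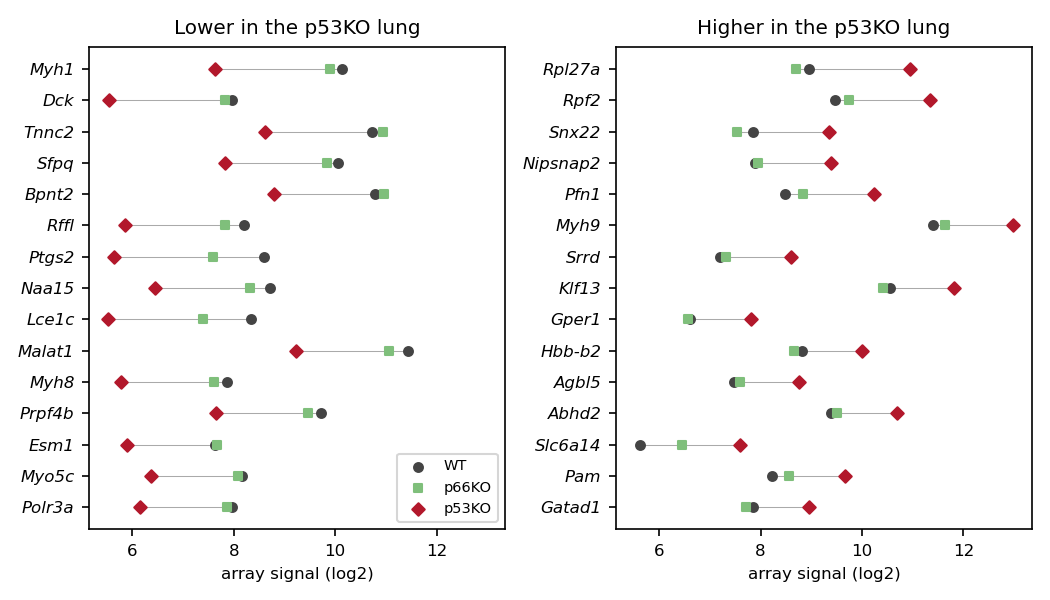
Array signal (log2) of the 15 lower genes and the 15 higher genes with the largest smaller difference among well-measured genes, 1 point for each lung array. For the lower genes the p53KO point lies to the left of both other points, and for the higher genes to their right.

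Several of the leading lower genes act in nuclear RNA processing. Sfpq, a splicing factor and core protein of nuclear paraspeckles, read 10.06 in WT lung, 9.84 in p66KO lung and 7.83 in p53KO lung. Malat1, a long non-coding RNA kept in nuclear speckles, read 11.44, 11.06 and 9.22. Prpf4b, a kinase of the spliceosome, read 9.73, 9.46 and 7.65. On these probe sets each lay within 0.4 in the WT and p66KO lungs and at least 1.8 lower in the p53KO lung. Of 35 measured genes in the list of splicing factors and their kinases, 4 were lower and none higher: Srpk2, a kinase of SR proteins, at 9.41, 8.28 and 6.72, Tra2a, an SR-like splicing activator, at 10.92, 10.43 and 8.73, Srsf1, a founding SR protein, at 11.51, 11.47 and 10.41, and Malat1. The median over the list was -0.22 against WT and -0.43 against p66KO, beside 0.07 and 0.06 over all genes. The p53KO lung was the lowest at 26 of the 35 genes (74.3%, against 35.7% of all genes) and the highest at 6. Other genes of this kind, picked out after the lower set was seen, were Pnn (8.50, 8.65 and 7.12), Rnps1 (9.80, 9.89 and 8.58), Hnrnpr (10.46, 10.61 and 9.13), Hnrnpk (12.63, 12.61 and 11.54) and Prpf19 (11.41, 11.28 and 10.26), which bind RNA or act in the spliceosome. Families named alike were also chosen after the values were seen, and 1.79% of all genes were lower. Lower were 13 of 336 Zfp zinc finger genes (3.87%), 4 of 40 Zbtb transcription factors, 3 of 18 Kdm histone demethylases and 2 of 19 Hnrnp genes. None of these families held a higher gene. Of other families, 1 of 48 Krt genes (2.08%) and 0 of 46 Rpl and Rps genes were lower. The lower genes were long: their median gene length was 30655 bp over 324 with a length, against 20222 bp over all 18142 genes with one and 12392.5 bp over the 28 higher genes.

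Several of these genes have further probe sets, and these did not all move alike. For Malat1, 3 further probe sets at or above the median were lower in the p53KO lung by at least 1.30 from both references, while another (8.53 in WT, 9.04 in p66KO and 8.49 in p53KO lung) was not. In these 3 the p66KO lung lay between the others, at 9.93, 8.42 and 5.71, at 11.32, 9.57 and 8.27, and at 10.72, 9.81 and 8.03. For Sfpq the next brightest probe set read 8.37, 8.49 and 7.91. Srsf1 had further probe sets at 11.06, 11.09 and 9.64 and at 8.61, 8.73 and 7.42, another at 9.09, 9.61 and 9.03, and one in the opposite direction at 7.66, 8.03 and 8.33. Below the median in WT lung, a further one read 6.41, 8.19 and 8.45. Hnrnpr had others at 9.11, 9.96 and 9.29 and at 7.56, 7.64 and 7.85, and Prpf19 had one at 10.36, 10.24 and 10.10. Rnps1 had one at 8.08, 8.38 and 8.38 and one lower by over 2-fold at 9.94, 9.64 and 8.46. Prpf4b likewise had one at 7.88, 8.26 and 8.03 and one lower by over 2-fold at 8.30, 8.34 and 7.03. Of the lower genes, 242 had other probe sets, 529 in all, and 198 of these probe sets were at or above the median in both reference lungs. The p53KO lung was below both references in 150 of the 198, by at least 1 in 38, with a median of -0.45 against WT and -0.51 against p66KO. In most of these 198 probe sets the difference was in the same direction and under 2-fold. The limit was set on the reference lungs, where the lower genes are high, which favours agreement. No share over all probe sets was taken beside it. Among those under the limit, many did not lie below both references on the p53KO array, and their share was not taken. Some were higher there than in both, such as 1 of Abhd17b (5.93, 5.94 and 6.81) and 1 of Ywhag (4.80, 5.24 and 6.21). The agreement counted above therefore holds only for the probe sets within the limit.

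The skeletal muscle list held more lower genes than any other of the 36 lists, 5 of 20 measured, and none higher. Myh1, a fast myosin heavy chain, read 10.13 in WT lung, 9.90 in p66KO lung and 7.63 in p53KO lung. Tnnc2, fast troponin C, read 10.73, 10.94 and 8.61. Tnnt3, fast troponin T, read 8.30, 7.63 and 6.28. The remaining ones were Mylpf, a myosin light chain, at 9.10, 9.72 and 7.76, and Myh8, the perinatal myosin, at 7.86, 7.61 and 5.78. The list median was -0.91 against WT and -0.89 against p66KO. Neb, nebulin, met the 2-fold rule with 6.53, 6.84 and 4.47 but was set aside because WT liver read 7.84. Acta1, skeletal actin, read 10.88, 10.36 and 9.42 and was at least 2-fold below WT lung but not below p66KO lung. Of the 20 genes, 9 were at least 2-fold below WT and 7 below p66KO. Myoz1, by contrast, read 9.50, 9.37 and 9.45. Ttn (9.64, 9.12 and 7.48), Myot (7.06, 7.31 and 5.74) and Myom2 (9.10, 8.16 and 6.93), sarcomere genes outside the list, were also lower. Of the 22 cardiomyocyte genes Ckmt2, a mitochondrial creatine kinase, was lower (8.88, 8.16 and 6.73), and Nppa, the atrial natriuretic peptide, was higher (7.02, 6.40 and 8.06).

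Further lower genes are known from surface epithelia, and were grouped after their values were seen. Of 15 genes of the Lce family, late proteins of the cornified envelope, 5 were lower: Lce1c at 8.35, 7.39 and 5.52 in WT, p66KO and p53KO lung, Lce1a1 at 9.55, 8.83 and 7.17, Lce3a at 10.17, 9.63 and 8.49, and Lce1d and Lce1f at differences between -1.07 and -1.88. Krt13, a keratin of stratified epithelium such as that of the oesophagus, read 9.72, 9.62 and 8.57, and was the only one of 48 Krt genes in the set. Dsc1, a desmosomal cadherin, read 6.96, 7.04 and 5.21. From the airway lining came Bpifa1, a secreted defence protein, at 10.35, 10.11 and 8.59, Bpifb1 at 8.60, 8.85 and 7.49, and Sox2 and Foxa2, transcription factors of airway epithelium, at 8.22, 8.27 and 7.03 and at 10.42, 10.51 and 9.36. The other 8 of 10 Bpif genes were in neither set, and the median over the family was 0.16 against WT and 0.31 against p66KO. Aldh3a1, an aldehyde dehydrogenase, read 7.90, 7.2 and 5.38. Of 18 ciliated cell genes 2 were lower, Ccdc39 and the radial spoke gene Rsph4a (6.79, 6.82 and 5.31), and the median of that list was -0.27 against WT and 0.02 against p66KO. Dynlrb2, a dynein light chain of cilia, was level at 9.93, 9.84 and 9.89. Most genes of the ciliated list and all of the type II and club cell list were not lower by the rule.

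Of 28 heat shock genes and cytosolic chaperones, 3 were lower and none higher. Hsph1, a large co-chaperone that exchanges nucleotide on HSP70, read 10.85 in WT lung, 9.56 in p66KO lung and 8.33 in p53KO lung. Hspe1, the mitochondrial co-chaperonin, read 11.32, 11.18 and 10.12. Cryab, a small heat shock protein abundant in muscle and lens, read 11.66, 11.50 and 10.47, with its other probe set at 10.69, 10.79 and 10.61, which did not differ. Hspa1b, an inducible HSP70, read 12.22, 9.81 and 7.86 and met the rule, but was set aside because WT liver read 11.09. Hspa1a, its near-identical copy, read 10.25, 6.71 and 6.26, so the p66KO lung already lay near the p53KO lung. The list lay lower as a whole, by a median of -0.88 against WT and -0.50 against p66KO, with 11 genes at least 2-fold below WT and 4 below p66KO. Beyond it, 1 of 14 chaperonin and prefoldin genes (Cct8, at 9.97, 9.91 and 8.90) and 2 of 30 genes of the unfolded protein response (Derl1, at 11.12, 11.11 and 10.09, and Sec11c, at 10.15, 9.85 and 8.82) were lower. The other Derl1 probe sets did not move alike. They read 8.58, 8.42 and 7.77, lower by less than 2-fold, 8.18, 8.64 and 8.39, and 7.91, 8.24 and 8.39, higher in the p53KO lung.

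Heat shock factor binds inverted repeats of a short unit that holds GAA, and these letters stand in the promoters of some lower genes. RefSeq promoters (build GRCm38.p6, 250 bases before to 50 after a start site) were matched for 260 of the 325 lower genes, with 335 promoters. The pair GAANNTTC or TTCNNGAA, read on both strands, was in 12.5% of them against 12.8% of 18109 promoters of all measured genes. The longer form, with 1 more unit, was in 5 (1.49%) against 95 (0.525%) of all promoters. These 5 promoters belong to Hsph1 (which has a pair of start sites sharing 1 element), Hspe1, Grsf1 and Art3. Their elements are shown because they are the longest matches among the lower genes; each line holds 30 bases, 5′ to 3′ on the strand of the gene, with the element in capitals.
Hspe1: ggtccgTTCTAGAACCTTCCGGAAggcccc
Hsph1: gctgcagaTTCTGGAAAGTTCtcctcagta
Grsf1: tccTTCCGGAAACTTCgccgggcctcggtg
Art3, distal: tcctggaaGAATGTTCTTGAAgcctggtac
Art3, proximal: cagtttgcTTCCAGAACTTTCctccacccg
The Hspe1 stretch (chr1:55088053-55088082, plus strand) begins its element 89 bases before the start site and joins 2 overlapping matches. The Hsph1 stretch (chr5:149636279-149636308, minus strand) lies after the start site, with its element beginning at base 16 of the transcript. The Grsf1 stretch (chr5:88676392-88676421, minus strand) begins its element 247 bases before the start site, and the Art3 stretches (chr5:92331625-92331654 and chr5:92331798-92331827, plus strand) begin theirs 194 and 21 bases before it. By RefSeq gene extents, the Hspe1 stretch lies within the neighbouring chaperonin gene Hspd1, the Hsph1 and proximal Art3 stretches within their own genes, and the other stretches in no gene. Grsf1, an RNA-binding protein of mitochondria, read 10.71, 10.27 and 8.95 in WT, p66KO and p53KO lung, and Art3 read 7.31, 6.94 and 5.57. The match is a description of the letters and not of binding. No share was tested. The CCAAT box was in 43.3% of the lower genes' promoters against 37.4% of all, the TATA box (TATAAA) in 10.4% against 9.77%, the cyclic AMP response element (TGACGTCA) in 3.58% against 2.49% and the E-box (CACGTG) in 10.1% against 8.72%. The p53 half-site, searched after the set was seen, was in 5.67% against 7.22% of all promoters, and in 0 of 29 promoters of the higher genes.

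Of 38 measured genes that p53 activates, 3 were lower by the rule and none higher. The p53KO lung was the lowest of the 3 at 22 of them (57.9%, against 35.7% of all genes) and the highest at 11. This share was not particular to p53 targets, and over the 36 lists it ran from 10.0% (thymocytes) to 96.4% (heat shock). The lists of splicing factors (74.3%), S phase (67.9%) and the proteasome (63.3%) lay above the p53 list, and G2 and mitosis (45.5%) below it. Pmaip1, which encodes the apoptotic BH3-only protein Noxa, read 7.48 in WT lung, 7.06 in p66KO lung and 5.51 in p53KO lung. Trp53inp1, a nuclear protein induced in stress, read 11.04, 10.41 and 9.40, while its other probe set, below the median, read 6.13, 6.09 and 6.89. Perp, a membrane protein of desmosomes and apoptosis, read 9.28, 9.33 and 8.23. The median over the list was -0.20 against WT and -0.22 against p66KO, beside 0.07 and 0.06 over all genes. Cdkn1a, the cell-cycle inhibitor p21, read 10.20, 9.60 and 9.35, Mdm2, the ligase that degrades p53, read 8.97, 9.07 and 8.49, and Ccng1, cyclin G1, read 10.96, 10.77 and 9.99. All 3 were lowest in the p53KO lung without reaching the threshold. Bbc3, which encodes Puma, read 7.40, 7.42 and 7.38. Among 28 genes of S phase 3 were lower, Mcm5 (8.14, 7.97 and 6.61) and Mcm3 (7.83, 7.79 and 6.65) of the replicative helicase and Rrm2 of ribonucleotide reductase (7.12, 7.43 and 5.95), and none of 33 genes of G2 and mitosis was in either set.

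**Figure D3:**
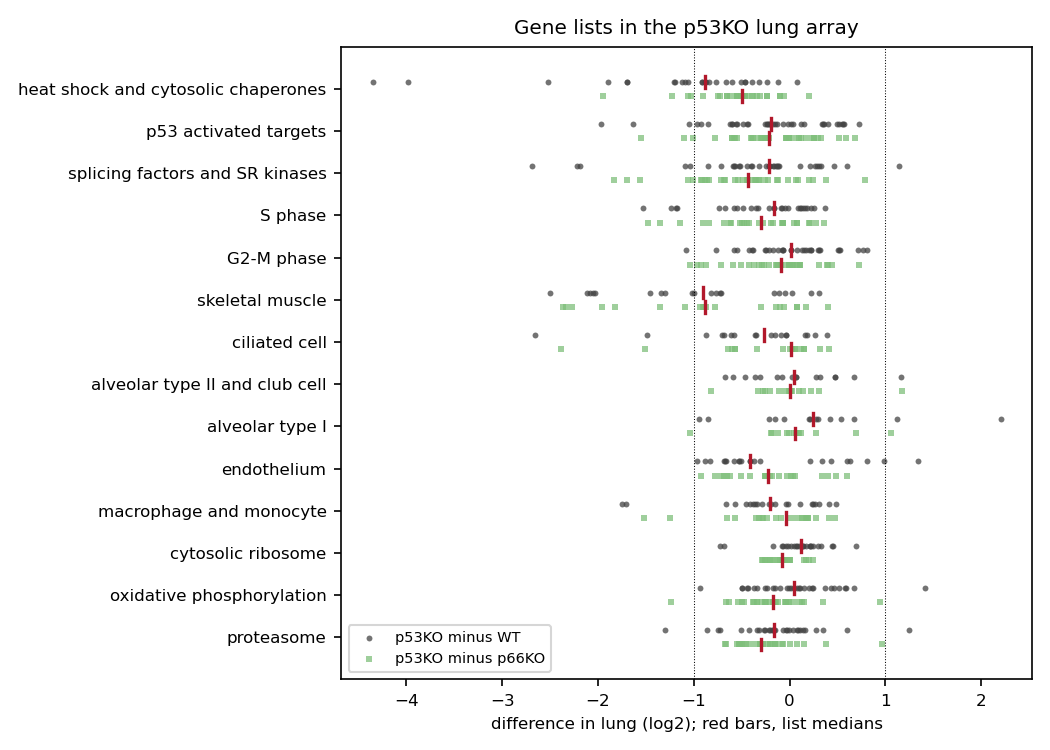
Differences of the p53KO lung array from the WT lung (black) and the p66KO lung (green) in log2, 1 point for each gene of 14 lists, with list medians as red bars and dotted lines at 1 log2 unit. The heat shock and skeletal muscle lists have medians between -0.91 and -0.50, and the other 12 lie between -0.43 and 0.24.

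Of the 36 lists, 19 held no gene of either set. Among these were 25 immediate early genes, 25 interferon response genes, 22 of fibroblasts and matrix, 31 of oxidative phosphorylation, 24 cytosolic ribosomal proteins and 30 of the proteasome. Over all genes only 1.79% were lower and 0.154% higher. Lists of this size, here and above, would thus often hold none, and an empty list says little about its genes. Single lower genes came from the circadian clock (Cry1, a repressor of the clock, at 6.09, 6.12 and 4.70), the hypoxia response (Slc2a1, the glucose transporter GLUT1, at 8.37, 8.14 and 6.91), the antioxidant response (Gclc, of glutathione synthesis, at 10.15, 10.01 and 8.80) and ribosome assembly (Rrs1, at 8.59, 8.40 and 7.05). Of 22 macrophage genes 2 were lower, the scavenger receptor Marco (9.16, 8.98 and 7.46) and the complement subunit C1qb (9.66, 9.16 and 7.91), whose partners C1qa (9.0, 8.96 and 8.65) and C1qc (8.89, 8.88 and 8.23) were not. The other C1qb probe sets read 8.51, 8.44 and 8.28, and 8.56, 8.32 and 7.81, both lower by less than 2-fold. Ptgs2, the inducible cyclooxygenase, read 8.60, 7.60 and 5.63, and Esm1, a proteoglycan of endothelial tip cells, read 7.64, 7.68 and 5.89. The fixed lists together held 779 of the 18193 measured genes. They named 30 of the 325 lower genes and 4 of the 28 higher genes. Most genes of both sets lie outside the lists, as do most genes measured. The lists were chosen with earlier results of these data known, so these counts carry no test. Dck, the deoxycytidine kinase of nucleoside salvage, read 7.96, 7.82 and 5.55, and Naa15, a subunit of the N-terminal acetyltransferase, read 8.71, 8.32 and 6.45. The other leading lower genes were Bpnt2, Rffl, Myo5c and Polr3a, with smaller differences between -2.0 and -1.72.

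The 28 higher genes differed by a median of 1.30 from WT lung and 1.26 from p66KO lung, and none reached 4-fold against both. Rpl27a, a protein of the large ribosomal subunit, read 8.95 in WT lung, 8.69 in p66KO lung and 10.94 in p53KO lung, and was the only one of 46 Rpl and Rps genes in the set. Rpf2, a factor of large subunit assembly, read 9.47, 9.75 and 11.33. Myh9, the non-muscle myosin IIA heavy chain, read 11.39, 11.63 and 12.98, and Pfn1, the actin-binding profilin, read 8.48, 8.83 and 10.24. Klf13, a zinc finger transcription factor, read 10.55, 10.41 and 11.81. The globin genes Hbb-b2 (8.82, 8.67 and 9.99) and Hba-a2 (4.32, 4.47 and 5.99) were higher on these probe sets, but the other Hbb-b2 probe set read 10.35, 10.24 and 9.57, and globin copies share sequence, so the gene is uncertain. Of lung genes, Nkx2-1, the transcription factor that defines lung epithelium, read 5.43, 5.42 and 6.59, and Col4a3, a collagen of the alveolar basement membrane, read 8.17, 9.31 and 10.37, with another probe set at 9.02, 9.59 and 8.59. The remaining leading genes were Snx22, Nipsnap2, Srrd, Gper1, Agbl5, Abhd2, Slc6a14, Pam and Gatad1, with smaller differences between 1.10 and 1.5. Foxo3 (1.01), Ezr (1.01) and Nppa (1.03) were just inside the threshold, and Sod1, Cavin1 and Mmp24 (each 0.98) just outside. Another probe set ran in the opposite direction at Slc6a14 (8.22, 8.27 and 7.79), Ezr (10.37, 10.67 and 9.96) and Rpf2 (7.34, 7.01 and 6.52). Of 15 other probe sets of the 28 higher genes whose p53KO signal was at or above the median, none was 2-fold higher and 9 were higher by any amount, with medians of 0.17 against WT and 0.26 against p66KO. This limit was set on the array where the genes are high, which favours agreement. For Myh9, the further probe set at 11.38, 11.79 and 12.53 came closest, while another read 9.56, 9.45 and 9.82.

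The arrays of heart and thymus and the knock-out arrays of liver took no part in choosing these genes, whereas the WT liver array did, through the limit on liver transcripts. By the same 2-fold rule, the p53KO heart lay below both other hearts at 15 genes (0.0824%), of which 4 were lower in lung: Malat1, Sfpq, Naa15 and Myot. Malat1 read 9.11 in WT heart, 8.65 in p66KO heart and 7.52 in p53KO heart, Sfpq read 7.25, 6.92 and 5.91, and Naa15 read 8.09, 7.56 and 6.20. It lay above both at 4 genes (0.022%), of which 1, Fam25c, was lower in lung. The p53KO liver lay below both others at 11 genes (0.0605%), none of them among the 353, and above both at 4 (0.022%), of which Pfn1 was higher in lung, with 8.74, 8.79 and 10.13 in WT, p66KO and p53KO liver. The p53KO thymus lay below both others at 105 genes (0.577%), of which Gja1, Maf, Tent5a and Tob1 were lower in lung and Nppa and Pam higher. It lay above both at 48 genes (0.264%), of which Klf13, Myh9, Upf1 and Hba-a2 were higher in lung, and 5 muscle genes, Myh1, Mylpf, Myot, Tnnc2 and Tnnt3, were lower. Few of the lung genes thus reached 2-fold in another tissue.

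Smaller differences ran in the direction of lung at many of the lower genes. In heart, where all 3 arrays had a high 18S signal, the p53KO array was the lowest of the 3 at 228 of the 325 lower genes, or 70.2%, against 26.2% of all genes, and the median difference from the mean of the other hearts was -0.45 (0.01 over all genes). In liver, where all 3 arrays had a low 18S signal, it was the lowest at 215, or 66.2%, against 35.5% of all genes, with a median of -0.24 (-0.01 over all genes). The WT liver array is part of this order and of the rule, so the same share was taken over the 17737 genes within the liver limit, of which 35.1% had the p53KO liver lowest. It was the lowest in both of these tissues at 167 of the 325, or 51.4%, against 11.6% of all genes and 11.4% of those within the liver limit. The 3' minus 5' signal of Gapdh was 0.41, 0.31 and 0.25 in WT, p66KO and p53KO heart and 0.95, 0.90 and 0.82 in liver. This is the same order as in lung. That of Actb was 0.82, 0.71 and 0.36 in heart and 1.68, 1.39 and 1.62 in liver. The part of these differences in the heart and liver counts was not tested. The p66KO arrays lay on the same side of WT: over the lower genes the p66KO heart differed from the WT heart by a median of -0.54 and the p53KO heart by -0.73, and in liver the medians were -0.17 and -0.34. In thymus the p53KO array was the lowest at 31.4% of the lower genes, against 25.5% of all genes, and the highest at 6.77%, against 22.7%. Its median difference was -0.06 from the mean of the others, 0.38 from WT thymus and -0.46 from p66KO thymus, so the direction depended on the reference array. WT thymus is the most divergent array of its tissue, with 1342 genes at least 1 below and 529 above both other thymus arrays.

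A total of 51 lower genes (15.7%, against 3.3% of all genes) had the p53KO array lowest in heart, liver and thymus alike. Hsph1 was one of them, with 10.56, 8.84 and 8.63 in WT, p66KO and p53KO heart, 10.78, 9.73 and 9.21 in liver and 9.79, 10.08 and 9.71 in thymus. Perp was another, with 10.54, 9.95 and 9.89 in heart, 10.49, 10.26 and 10.01 in liver and 10.42, 9.32 and 8.54 in thymus. Tob1, an anti-proliferative protein that recruits deadenylases to mRNA, read 9.42, 8.76 and 8.48 in heart, 10.55, 10.74 and 9.93 in liver and 9.70, 9.40 and 8.02 in thymus. Of the higher genes, 1 of 28 was highest in the p53KO array of all 3 tissues, against 3.12% of all genes, and that was Klf13, with 9.96, 9.68 and 10.34 in heart, 9.70, 9.0 and 9.87 in liver and 11.15, 11.00 and 12.74 in thymus.

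A fit over the 9 arrays outside lung, with tissue as a block, tested the p53KO arrays against the mean of WT and p66KO. By limma with Benjamini-Hochberg adjustment over all genes, 0 genes passed an adjusted p of 0.05 in either direction (0% of genes), and the smallest adjusted p was 0.9999. At an unadjusted p of 0.05, 365 genes were lower (2.01%) and 94 higher (0.517%). Among the 325 lower genes 37 (11.4%) were lower and 2 higher at that level, and among the 28 higher genes 0 were lower and 2 higher. The estimate was below 0 at 267 of the lower genes (82.2%, against 46.5% of all genes), with a median of -0.23 and a median standard error of 0.27, and above 0 at 24 of the higher genes (85.7%, against 53.5%). Without the p66KO thymus, the one array outside lung whose 18S range differed from the rest of its tissue, these became 220 of 325 (67.7%, against 47.2% of all genes) and 18 of 28 (64.3%, against 52.8%). The lower genes with the smallest unadjusted p, picked after the values were seen, were Evi5 (estimate -0.89 with a standard error of 0.16), Tob1 (-0.95, 0.22), Pawr (-0.66, 0.16), Slc35a2 (-0.76, 0.19) and Slc15a2 (-0.96, 0.25). With 4 residual degrees of freedom, and 1 array for each tissue and genotype, no gene was called outside lung.

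**Figure D4:**
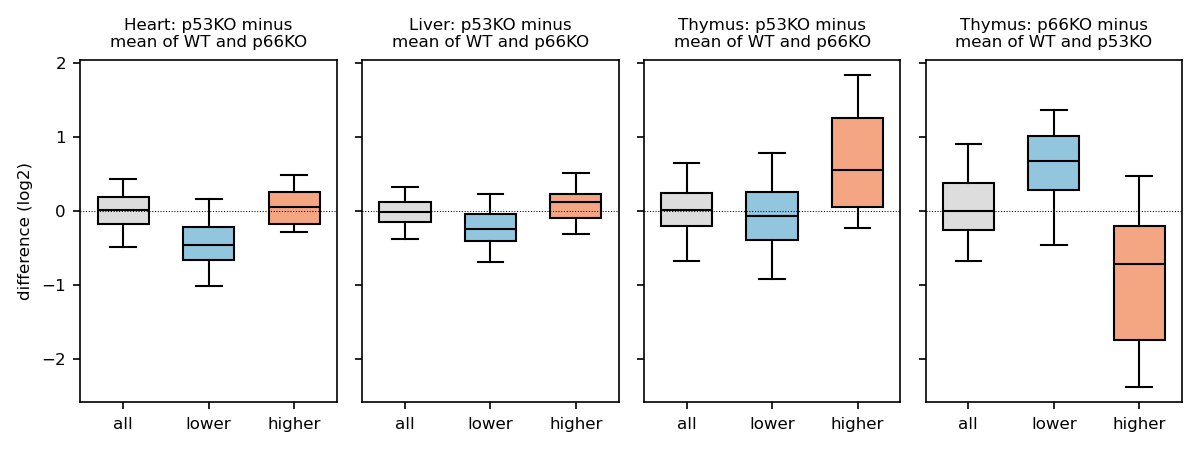
Differences within heart, liver and thymus in log2, for all 18193 genes, the 325 lower genes and the 28 higher genes; boxes span the quartiles, the line is the median and whiskers reach the 5th and 95th percentiles. The lower genes lie below 0 on the p53KO heart (median -0.45) and liver (-0.24) arrays, and above 0 on the p66KO thymus array (0.68), where the higher genes lie below 0 (-0.72).

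In thymus the p66KO array alone had a low 18S signal, as WT and p66KO lung did, so low 18S signal and p66KO genotype cannot be told apart there. The p66KO thymus lay above both other thymus arrays at 244 of the 325 lower genes, or 75.1%, against 34.4% of all genes, and by 2-fold or more at 16, against 70 of all genes (0.385%). It lay below both at 23 of the 28 higher genes, or 82.1%, against 33.9% of all genes, and by 2-fold or more at 8, against 33 of all genes (0.181%). These 8 were Agbl5, Hba-a2, Hbb-b2, Nipsnap2, Rpf2, Rpl27a, Snx22 and Spout1. The median difference of the p66KO thymus from the mean of the others was 0.68 over the lower genes and -0.72 over the higher genes, beside 0.00 over all genes. Against the p53KO thymus alone, which leaves the divergent WT thymus out, the p53KO minus p66KO medians were -0.46 for the lower genes and 0.98 for the higher genes, and -0.02 over all genes. At these genes the WT and p53KO thymus, both with a high 18S signal, thus lay on the side of the p53KO lung, and the p66KO thymus on the side of the other lungs.

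The higher genes also lay higher on arrays with a high 18S signal among the 9 outside lung. Their median signal was between 8.58 and 9.04 on the 5 arrays with a high 18S signal and between 7.61 and 7.73 on the 4 with a low one, whatever the genotype. Rpl27a read 11.16, 9.32 and 9.98 in WT, p66KO and p53KO heart, 9.08, 8.58 and 8.62 in liver, and 11.12, 8.08 and 11.68 in thymus. Snx22 read 8.51, 8.17 and 8.55 in heart, 7.53, 7.47 and 7.83 in liver, and 9.31, 7.33 and 8.79 in thymus. At 13 of the 28 higher genes every one of the 5 arrays lay above every one of the 4, against 5.47% of all genes, and at 52 of the 325 lower genes (16.0%) every one of the 5 lay below every one of the 4, against 3.97% of all genes. These classes of arrays were drawn from the control signal and also hold all hearts on one side and all livers on the other, so tissue and class are mixed in these counts. The lower genes had medians between 6.53 and 7.79 on the 5 arrays and between 7.56 and 8.43 on the 4.

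**Figure D5:**
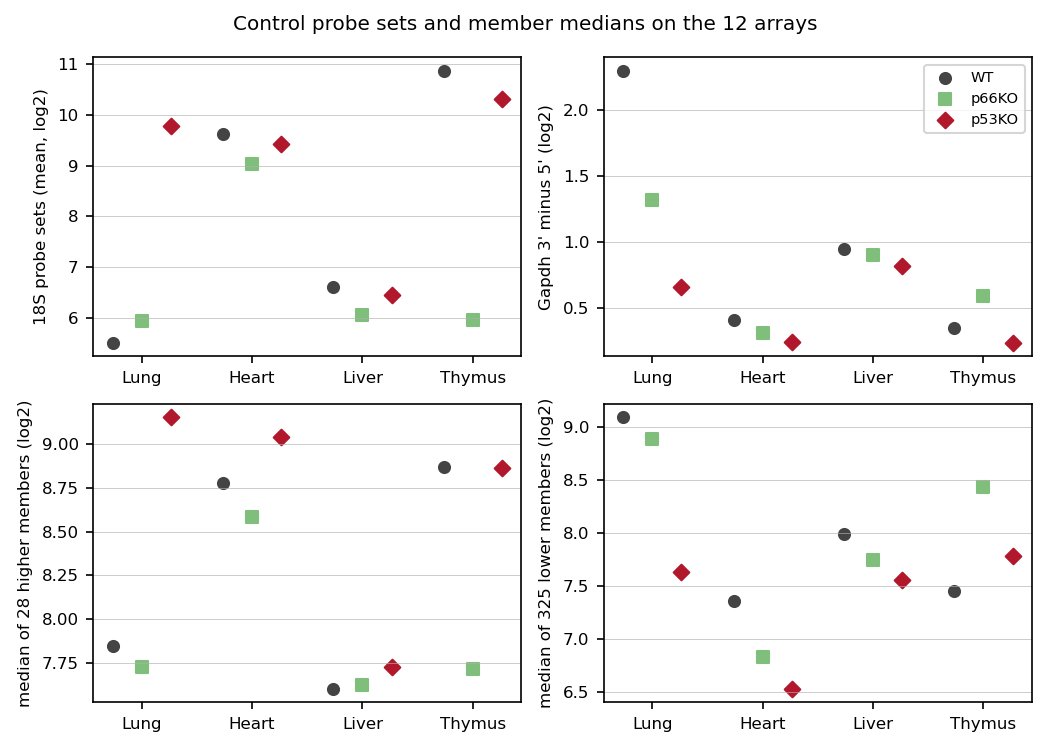
For each of the 12 arrays, in the 4 panels, the mean 18S signal (log2), the Gapdh 3' minus 5' difference (log2), the median signal of the 28 higher genes and the median signal of the 325 lower genes. The p53KO lung (9.79) sits with the hearts and with WT and p53KO thymus in the 18S panel, and the higher genes split the arrays in the same way.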

How the data were processed

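Total RNA from 12 tissue pools was hybridised to Affymetrix mouse expression arrays. The authors deposited log2 values made by RMA in Partek 6.5; the array labels describe one-cycle amplification, whereas the methods describe a 3' IVT kit. Since 3'-primed labelling reads the ends of transcripts, RNA length and carry-over of ribosomal RNA can alter signals. Of 45101 probe sets, 64 are controls, 34945 carry 1 gene symbol, 932 several and 9160 none. For each of 18193 genes the probe set brightest on average over the 12 arrays was kept. Lung differences were thresholded as described, with no test, since there is 1 array per group. The 9 other arrays were fitted with limma 3.58.1 (R 4.3.3; tissue block, empirical Bayes), a fit tested on simulated data. The precision of single arrays is limited by their number. Named genes were the 15 leading lower and higher genes at or above the median lung signal, up to 6 per list, 3 on each side of the thresholds, control probe sets and markers. The members and the gene lists were chosen with earlier results of these data known.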

Additional observations from a re-analysis of the deposited data

Results flagged for a closer look

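At 8 genes the p53KO array lay at least 2-fold beyond both other arrays in one direction in lung and in the opposite direction in another tissue; with 1 array per group the difference between tissues was not tested. The muscle genes were lower in p53KO lung and higher in p53KO thymus than in both other arrays of the tissue, by at least 4.63 at Tnnc2 (6.51 in WT, 5.97 in p66KO and 11.14 in p53KO thymus), 4.32 at Myh1 (4.25, 4.30 and 8.62), 3.14 at Tnnt3 (5.58, 5.11 and 8.72), 2.54 at Mylpf (6.67, 7.63 and 10.17) and 1.19 at Myot (5.88, 4.47 and 7.07). Nppa was higher in p53KO lung and lower in p53KO thymus by at least -3.01 (9.21, 11.75 and 6.20), and Pam likewise by at least -1.0035 (8.25, 7.45 and 6.45). Fam25c was lower in p53KO lung and higher in p53KO heart by at least 1.02 (7.24, 7.21 and 8.26).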

How the results depend on the processing

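The number of lower genes, 325, was 1277 at 1.5-fold, 31 at 3-fold, 125 with probe sets averaged within genes, 203 with quantile normalization repeated over the 12 arrays, 609 against WT lung alone and 488 against p66KO lung alone. The number of higher genes, 28, was 461 at 1.5-fold, 1 at 3-fold, 13 with averaged probe sets, 45 with repeated quantile normalization, 112 against WT lung alone and 43 against p66KO lung alone. Leaving out genes at which the p66KO thymus lay on the side of WT and p66KO lung, an alternative chosen after seeing the data, left 81 lower and 5 higher genes. Repeated quantile normalization raised the share of higher genes among both sets from 7.93% to 18.1%; centring each array on its median gave 461 lower and 19 higher genes and shifted the median difference from WT over all genes from 0.07 to -0.04. The 3 lower heat shock genes became 8 at 1.5-fold, 0 at 3-fold, 1 with the liver limit at 2 log2 units, 0 with averaged probe sets, 1 with repeated quantile normalization (not one of the 3), 0 with cyclic loess and 10 against WT lung alone. The cause of these changes was not tested beyond the thresholds, samples or probe sets each alternative changes. In the fit outside lung, leaving thymus out gave 1 lower gene, Hspa1b, at a limma adjusted p of 0.0295, and every other alternative gave 0 in both directions. The remaining alternatives kept each count within 1.5 times. In lung, no paired analysis was possible because each group holds 1 array; outside lung, tissue was the block in every fit.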
